A study of Mus musculus with 9 samples.

Results

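Baiap2 and its relatives with an I-BAR domain were examined in livers of aged mice whose hepatocytes had been given a guide RNA against the cyclin gene Ccnd1. The members were chosen by name, as the genes Baiap2, Baiap2l1, Baiap2l2 and Mtss1, and each was 1 row of the deposited table, so 4 of its 27179 genes are described. Baiap2 came into view because it differed between the 2 groups of these same libraries, and the other members because they share its domain. Differences of members between the groups are therefore given as descriptions, with no p, and counts of calls among them appear only beside the share of all genes called. Mtss2, the remaining I-BAR gene of the mouse, is shown beside them.

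Poly(A) RNA from pieces of the liver lobe labelled m-lobe of C57BL/6J mice of wild-type genotype was sequenced in bulk. All animals were injected behind the eye at 17 months of age with AAV8, a liver-directed virus, that carried the nuclease saCas9 driven by the TBG promoter, and their livers were taken 3 weeks later. The groups differed in the U6-driven guide: 4 control libraries had sgRosa26, which directs a cut to a safe-harbour locus, and 5 libraries had sgCcnd1. Letters A to D stand for the control libraries and E to I for those with sgCcnd1, in column order, since the columns name the group but no replicate number. The TBG promoter is active in hepatocytes, so other liver cells were measured without being targeted, and fewer cells of a type and less RNA per cell cannot be told apart in such bulk samples.

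Depth was 10840595 to 20176201 reads assigned to genes per library. Values are normalized counts, that is, reads divided by a size factor of each library. Ccnd1, the targeted gene, was at 625 to 867 normalized counts in the controls and at 325 to 428 in sgCcnd1 (log2 fold change -1.03, limma adjusted p = 0.0116), and its call was lost when library B, D, F, H or I was left out. The transcript at the control target, Gt(ROSA)26Sor, was at 114 ± 29.5 (SD, n = 4) and 116 ± 11.5 (SD, n = 5) normalized counts. The summed level of 7 hepatocyte markers, among them Alb and Ttr, overlapped between the groups. That sum is mostly Alb, with group means of 1.53e+06 and 1.50e+06 normalized counts. By gene, 3 of the 7 were above 0 and 4 below, with log2 fold changes from -0.21 to 0.40 and 0 passing in limma. Library H stood apart from the others in the Y-linked gene Ddx3y, with a normalized count of 2.00 where the remaining 8 libraries had 810 to 1154. The labels give no sex, and values without H are given where they bear on a result.

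I-BAR domains are curved, rod-like dimers that bind the inner face of the plasma membrane and bend it outward, as in filopodia and ruffles. Baiap2, also called IRSp53, couples this domain to the small GTPase Cdc42 and, through an SH3 domain, to actin regulators such as WAVE2, Eps8 and the Ena/VASP proteins. It was named as a substrate of the insulin receptor kinase. Hepatocytes carry actin-filled microvilli on their sinusoidal and bile canalicular faces.

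The genes lie at separate loci of GRCm38. Baiap2 (Entrez 108100) is on the plus strand at chr11:119939916-120006782 and Baiap2l1 (Entrez 66898) on the minus strand at chr5:144264525-144358112. Baiap2l2 (Entrez 207495, chr15:79258195-79285556) and Mtss1 (Entrez 211401, chr15:58941234-59083956) are both on the minus strand. Mtss2 (Entrez 244654) is on the plus strand at chr8:110721108-110741401. Exons of Baiap2, Baiap2l2, Mtss1 and Mtss2 shared no base with another gene of GENCODE M21. Exons of Baiap2l1 overlapped those of 3 genes on the opposite strand, the largest overlap being 3.62% of its exonic bases, and whether the counting used strand is not given in the sources used here.

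Baiap2 and Baiap2l1 both have an I-BAR and an SH3 domain and differed from each other in how their reads compared between the groups. The 250 bases before an annotated start of each are therefore shown, from RefSeq (GRCm38.p6), 5′ to 3′ on the gene's strand. Capitals mark the TATA box string TATAAA, the CCAAT box and the GC box string GGGCGG on either strand. The Baiap2 sequence is chr11:119942842-119943091 on the plus strand, the Baiap2l1 sequence chr5:144358113-144358362 on the minus strand. The Baiap2 sequence lies within the gene span given above, so it precedes an inner start, whereas that of Baiap2l1 borders the outer end of its gene. Which starts are used in these livers was not tested.
Baiap2: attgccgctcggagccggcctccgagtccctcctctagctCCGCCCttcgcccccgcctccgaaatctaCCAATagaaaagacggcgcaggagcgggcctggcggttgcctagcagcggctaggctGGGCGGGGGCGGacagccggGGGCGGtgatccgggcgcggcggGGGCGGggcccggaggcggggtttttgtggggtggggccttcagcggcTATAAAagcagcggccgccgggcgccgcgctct
Baiap2l1: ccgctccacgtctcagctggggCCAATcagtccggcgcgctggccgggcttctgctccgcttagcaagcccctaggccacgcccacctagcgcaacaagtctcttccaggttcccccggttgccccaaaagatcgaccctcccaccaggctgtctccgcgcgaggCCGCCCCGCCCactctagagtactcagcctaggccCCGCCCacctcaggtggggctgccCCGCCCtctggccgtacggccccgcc

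The Baiap2 sequence held 1 TATAAA, which begins at position -33 from the start, and the Baiap2l1 sequence held 0. Of 32851 promoter sequences of the same length, 12.4% held TATAAA or its reverse complement. CCAAT occurred 1 time in each sequence and in 33.8% of all promoters. GGGCGG occurred 5 times in the Baiap2 sequence, with overlaps counted, and 4 times in that of Baiap2l1, and 32.7% of all promoters held it. The E2F-type strings TTTCGCGC and TTTGGCGC, searched on both strands, occurred 0 times in either sequence, and the share of all promoters with them was 0.256% and 0.417%. Both sequences were rich in G and C, at 72.8% for Baiap2 and 70.4% for Baiap2l1, against a median of 52.4% over all promoters. These matches are strings of letters and show no binding.

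Baiap2 was lower in every sgCcnd1 library than in any control. Its normalized counts were 807 in A, 820 in B, 895 in C and 888 in D. In sgCcnd1 library E had 553, F 425, G 648, H 432 and I 522. The controls lay close together, the sgCcnd1 libraries were spread more widely with G highest and F and H lowest, and the groups did not overlap: 158 normalized counts lay between the lowest control and the highest sgCcnd1 library.

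The group means of Baiap2 were 852 ± 45.7 (SD, n = 4) and 516 ± 92.5 (SD, n = 5), so that sgCcnd1 stood at 60.6% of the control level. The log2 fold change was -0.74 (standard error 0.12), on the scale log2(normalized count + 1). Behind these values stood 656 to 954 reads per control library and 368 to 726 per sgCcnd1 library. Reads of that number alone would scatter by 3.40% (coefficient of variation) in the controls and by 4.33% in sgCcnd1, and the libraries scattered by 5.36% and 17.9%. Both spreads were thus above the counting error, that of the controls by less and that of sgCcnd1 by far more.

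Of the 4 members, 3 passed the minimum mean of 10 normalized counts over the libraries, each of them in both groups. In the limma fit over 12993 genes, 0 members passed an adjusted p of 0.05, where 0.0077% of all genes were called lower (1 gene, Ccnd1) and 0% higher. Non-overlap with lower values in sgCcnd1 held for 1 of 4 members, Baiap2, and for 1.97% of all genes tested, and non-overlap with higher values for 0 of 4 members and 1.92% of genes. With DESeq2 on the recovered reads 1 of 4 members, Baiap2, was called lower, as were 0.539% of all genes. The limma fit without library G also called 1 of 4, Baiap2, with 0.0154% of genes lower, and with edgeR 0 of 4 members were called, at 0.0077% of genes lower. Without library H, DESeq2 called 1 of 4 lower, Baiap2, with 0.192% of genes, and limma called 0 of 4, with 0% of genes. At an unadjusted p under 0.05 in limma, 1 of 4 members was lower (Baiap2), with 5.74% of all genes, and 1 of 4 was higher (Mtss1), with 5.22% of all genes. With DESeq2, 0 of 4 members and 0.262% of genes were called higher. Nothing is read from these counts, since the contrast itself brought Baiap2 into view.

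**Figure D1:**
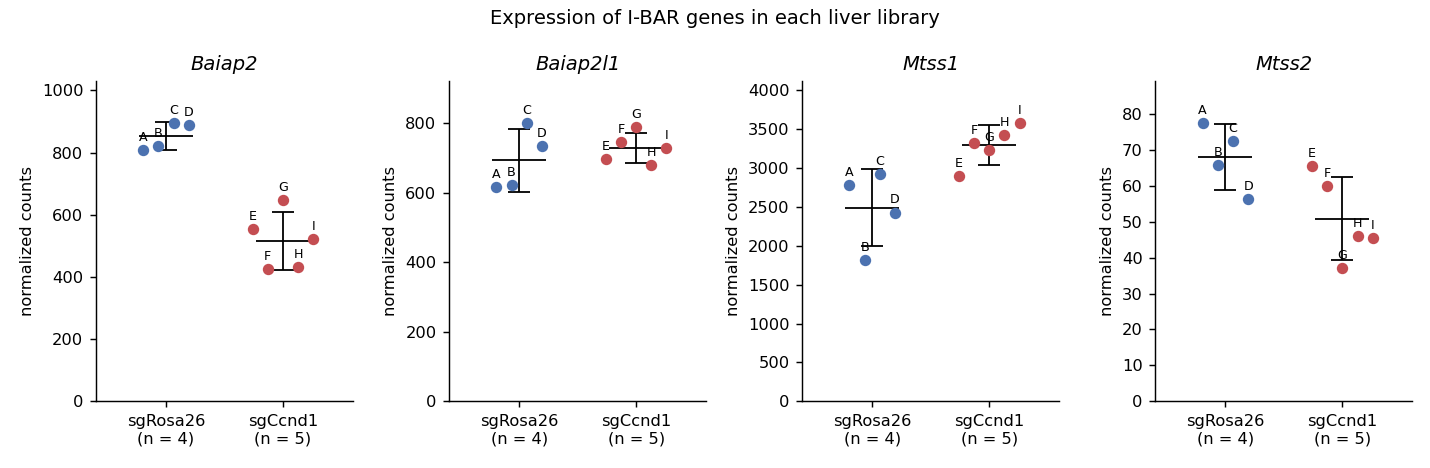
Normalized counts (vertical axes, each starting at 0) of Baiap2, Baiap2l1, Mtss1 and Mtss2 in each library, by guide (horizontal axis). Points are libraries with their letters, the long bar is the group mean and the whiskers are 1 SD. Baiap2 values of the 5 sgCcnd1 libraries all lie below those of the 4 controls, Baiap2l1 values overlap fully, and 4 of 5 sgCcnd1 libraries lie above all controls for Mtss1.

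Baiap2l1, also called IRTKS, has an I-BAR and an SH3 domain as Baiap2 does, and is found in epithelia. Its group means were close. It stood at 616 normalized counts in A, 621 in B, 801 in C and 733 in D, and libraries E to I had 697, 746, 788, 679 and 728. All 5 sgCcnd1 values fell inside the range of the controls. The means were 693 ± 90.1 (SD, n = 4) and 727 ± 42.8 (SD, n = 5), and the log2 fold change was 0.08 (standard error 0.10).

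Baiap2l2, known as Pinkbar and studied in intestinal epithelium and hair cells, was close to absent. Across the 9 libraries 4 reads were assigned to it among 142.8 M in all, 1 read in each of C, D, E and F and 0 in the others. A count of 0 allows up to 3 reads, which is 2.29 to 4.26 normalized counts depending on the library. No difference between groups was detectable at this depth, and the gene did not enter the fit.

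Mtss1, also called MIM, has an I-BAR domain and an actin-binding WH2 motif but no SH3 domain, and was described as missing in metastasis of bladder cancer lines. It had the highest normalized counts of the members, above 94.7% of all genes tested. Its values were 2779 in A, 1812 in B, 2925 in C and 2426 in D, and libraries E to I had 2892, 3316, 3225, 3427 and 3578. In 4 of 5 sgCcnd1 libraries Mtss1 was above all controls, and E lay just below the highest control, C.

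The mean of Mtss1 was 2485 ± 495 (SD, n = 4) in the controls and 3288 ± 257 (SD, n = 5) in sgCcnd1, which is a log2 fold change of 0.42 (standard error 0.13). Library B was the lowest control by a wide margin, and without it the log2 fold change was 0.28, a reduction of over 1.5 times. Counting error was small for this gene, at 2.01% and 1.73%, against a scatter of 19.9% in the controls and 7.82% in sgCcnd1. In contrast to Baiap2, the wider spread was in the controls.

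Mtss2, known as ABBA and described in radial glia, is the relative of Mtss1 and was a low gene here. It had 77.5, 65.7, 72.3 and 56.3 normalized counts in A to D, and 65.6, 60.0, 37.2, 46.0 and 45.4 in E to I. The lowest values were in G, I and H, all below the controls, whereas E and F lay within the control range. The means were 67.9 ± 9.11 (SD, n = 4) and 50.8 ± 11.6 (SD, n = 5), and the log2 fold change of -0.43 (standard error 0.18) did not pass in limma (adjusted p = 0.415). Its 32 to 86 reads per library give a counting error of 12.1% and 13.6%, close to the scatter of 13.4% in the controls and below that of 22.8% in sgCcnd1.

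Ratios of reads within a library contain no size factor. The ratio of Baiap2 to Baiap2l1 reads was 1.31 in A, 1.32 in B, 1.12 in C and 1.21 in D. In E to I it was 0.794, 0.570, 0.822, 0.636 and 0.717. Baiap2 thus had more reads than Baiap2l1 in 4 of 4 controls and fewer in 5 of 5 sgCcnd1 libraries. On the log2 scale the ratio was 0.31 ± 0.11 (SD, n = 4) and -0.51 ± 0.22 (SD, n = 5), a difference of -0.82.

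On the log2 scale the ratio of Mtss1 to Baiap2 reads differed more between the groups, with a wider spread within each. It joins the member lower in sgCcnd1 with one that was higher, which builds in a larger difference. The ratio ranged from 2.21 (B) to 3.45 (A) in the controls and from 4.98 (G) to 7.94 (H) in sgCcnd1. On the log2 scale this was 1.52 ± 0.29 (SD, n = 4) against 2.69 ± 0.32 (SD, n = 5), a difference of 1.16. The ratio of Mtss1 to Baiap2l1 reads, by comparison, overlapped between groups, with 2.92 to 4.51 in the controls and 4.09 to 5.05 in sgCcnd1.

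**Figure D2:**
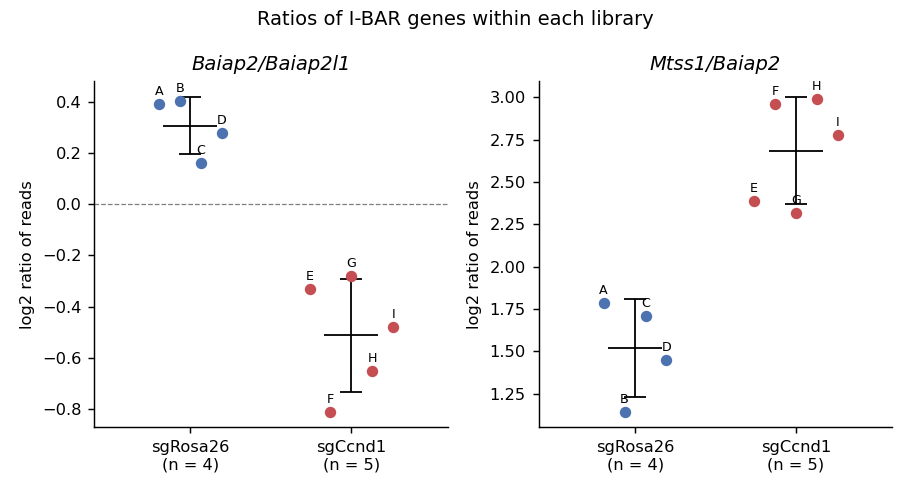
Log2 ratio of reads within each library (vertical axes) for Baiap2 over Baiap2l1 and for Mtss1 over Baiap2, by guide (horizontal axis). Points are libraries, the long bar is the group mean and the whiskers are 1 SD; the dashed line marks equal reads. The Baiap2/Baiap2l1 ratio lies above the line in the 4 controls (log2 0.16 to 0.40) and below it in the 5 sgCcnd1 libraries (-0.81 to -0.28).

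Levels of different genes were compared per kilobase of the longest GENCODE M21 transcript, 4.005 kb for Baiap2, 3.247 kb for Baiap2l1, 4.938 kb for Mtss1 and 4.717 kb for Mtss2. In the controls Mtss1 was highest, at 503 ± 100 normalized counts per kb (SD, n = 4). Baiap2l1 followed at 213 ± 27.8 and Baiap2 at 213 ± 11.4 normalized counts per kb, and by this length these neighbours in the order did not differ beyond their spread. Mtss2 was far lower, at 14.4 ± 1.93 normalized counts per kb, and Baiap2l2 lowest.

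In sgCcnd1 the order was Mtss1 (666 ± 52.1 normalized counts per kb, SD, n = 5), Baiap2l1 (224 ± 13.2), Baiap2 (129 ± 23.1) and Mtss2 (10.8 ± 2.46). Baiap2l1 and Baiap2 were separate here, since the lowest Baiap2l1 value was 209 and the highest Baiap2 value 162 normalized counts per kb. With the length of all exons together in place of the longest transcript, Mtss1 in the controls came to 219 normalized counts per kb, close to the 206 of Baiap2l1, and Baiap2 to 171. By that length the control values of Baiap2 (162 to 179 normalized counts per kb) lay below those of Baiap2l1 (183 to 238). The lead of Mtss1 in the controls and the closeness of Baiap2 and Baiap2l1 therefore rest on the transcript length used.

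As a share of the summed I-BAR signal per kb, Baiap2 made up 22.8% ± 2.66 in the controls (SD, n = 4) and 12.5% ± 2.22 in sgCcnd1 (SD, n = 5). Mtss1 made up 53.0% ± 4.61 and 64.6% ± 3.06. The share of Baiap2l1 was 22.7% ± 2.21 in the controls and 21.8% ± 1.14 in sgCcnd1. The summed signal itself was 944 ± 125 normalized counts per kb in the controls and 1030 ± 52.1 in sgCcnd1, and the groups overlapped in it (777 to 1078 and 953 to 1089).

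These shares rest on the length used. With the length of all exons Mtss1 made up 35.8% ± 4.21 in the controls and 46.8% ± 3.20 in sgCcnd1, and Baiap2 28.2% ± 2.46 and 16.7% ± 2.63. Baiap2l1 then made up 33.8% ± 2.39 and 34.9% ± 1.24, and the summed signal was 609 ± 69.2 and 619 ± 29.9 normalized counts per kb. By either length the Baiap2 share of every sgCcnd1 library was below that of every control.

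**Figure D3:**
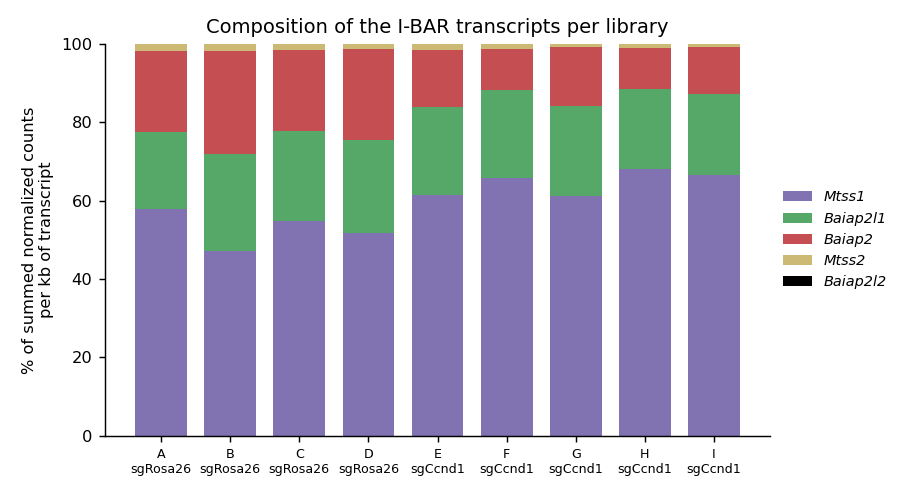
Share of each I-BAR gene (vertical axis, percent of the summed normalized counts per kb of longest transcript) in each library (horizontal axis, with its guide). Each bar is 1 library and adds to 100%; Baiap2l2 is too low to be seen. The share of Baiap2 lies between 20.7% and 26.3% in the 4 controls and between 10.4% and 15.2% in the 5 sgCcnd1 libraries; with the length of all exons the ranges are 26.03% to 31.5% and 13.95% to 19.8%.

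The machinery with which I-BAR proteins are known to act was followed in 10 lists of upstream GTPases, actin regulators, binding partners and other membrane-bending proteins. Of 137 listed genes, 120 were tested, and in limma 0 passed an adjusted p of 0.05 in either direction. The median log2 fold change was -0.03, beside 0.01 over all genes tested, with 50 genes above 0 and 70 below, where all genes tested had 6877 above and 6116 below. The groups did not overlap for 2 of the 120 with higher values in sgCcnd1, Arhgap29 and Daam1, and for 4 with lower values, Abi3, Fmnl1, Ptprs and Pstpip1, where the shares over all genes tested were 1.92% and 1.97%.

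Among 14 small GTPases of the Cdc42 and Rac family tested, 0 passed in limma and the median log2 fold change was -0.08, which came to -0.01 without library E or with a minimum mean of 100 normalized counts and to -0.15 in edgeR and DESeq2 without H. Cdc42, which binds Baiap2 directly, stood at 0.04 (standard error 0.07), and Rac1, which acts on WAVE through it, at -0.01 (standard error 0.08). The smallest p belonged to Rhob, a GTPase of endosomes, at 541 ± 72.9 normalized counts in the controls and 413 ± 44.3 in sgCcnd1 (limma adjusted p = 0.271). Rac2, the form of blood cells, was at 150.0 ± 25.6 and 109 ± 12.7 (limma adjusted p = 0.307), and Rhoj, an endothelial form, at 71.1 ± 12.9 and 48.1 ± 12.2 normalized counts (limma adjusted p = 0.360).

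The WAVE complex, which activates Arp2/3 downstream of Rac1, had 10 genes tested, 7 above and 3 below 0, with a median of 0.06. Wasf2, whose product WAVE2 binds the SH3 domain of Baiap2, was at 0.00 on the log2 scale (standard error 0.19). Abi3, an Abi-type subunit, was at 89.5 ± 9.44 normalized counts in the controls and 60.3 ± 7.29 in sgCcnd1 without overlap (limma adjusted p = 0.253), and Nckap1l was at 140 ± 7.20 and 105 ± 17.5 with overlap (limma adjusted p = 0.297). Nckap1, the broadly expressed counterpart of Nckap1l, was at 1205 ± 192 and 1455 ± 149 normalized counts (limma adjusted p = 0.401).

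Of 12 genes of the WASP family and formins, 5 were above and 7 below 0, with a median of -0.20, which turned to 0.05 with a minimum mean of 100 normalized counts. Wasl, the N-WASP of most tissues, stood at 0.10 and the formin Diaph1 at 0.02 on the log2 scale. Fmnl1, a formin of blood cells, had 67.0 to 88.5 normalized counts in the controls and 42.6 to 64.0 in sgCcnd1 (log2 fold change -0.66, limma adjusted p = 0.247). Wipf3 and Wipf1, which bind WASP proteins, were at -0.44 and -0.57 (limma adjusted p = 0.364 and 0.384).

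The 9 subunits of the Arp2/3 complex, which nucleates branched actin, varied least, from -0.08 to 0.11 with a median of -0.03. Actr2 stood at 0.11, Actr3 at -0.07 and Arpc4 at -0.08 on the log2 scale (limma adjusted p = 0.628, 0.747 and 0.786).

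Among 11 genes of the Eps8, Ena/VASP and bundling group, 2 were above and 9 below 0, with a median of -0.20 and 0 passing in limma. Vasp, which elongates filaments and binds Baiap2, was at 362 ± 30.1 normalized counts in the controls and 315 ± 31.9 in sgCcnd1 (limma adjusted p = 0.476). Eps8l2 was at 1565 ± 210 and 1311 ± 245 (limma adjusted p = 0.504) and the filopodial bundler Fscn1 at 102 ± 24.8 and 71.3 ± 28.5 normalized counts (limma adjusted p = 0.455). Enah, encoding Mena, fell under the minimum mean, at 7.95 ± 3.38 and 8.76 ± 3.63 normalized counts.

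Of 17 further Baiap2 partners, 14 were tested, 8 above and 6 below 0, with a median of 0.02. The adhesion receptor Adgrb1, after which Baiap2 is named, was under the minimum mean, at 1.16 ± 0.887 normalized counts in the controls and 0.876 ± 0.884 in sgCcnd1. Prkaa2, a catalytic subunit of the energy sensor AMPK, was at 1047 ± 181 and 1299 ± 173 normalized counts (limma adjusted p = 0.399). The scaffold gene Shank3 was at 134 ± 18.1 and 108 ± 16.3 (limma adjusted p = 0.441), and Lin7c, a polarity protein, at 854 ± 46.4 and 910 ± 44.2 normalized counts (limma adjusted p = 0.668).

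Of 8 genes listed for Mtss1, 6 were tested, with 4 above and 2 below 0. The receptor phosphatase Ptprs had 169 to 211 normalized counts in the controls and 123 to 167 in sgCcnd1, without overlap (log2 fold change -0.45, limma adjusted p = 0.253). Ptprd, to which MIM was reported to bind, stood at 0.21 and the cortical actin protein Cttn at 0.13 on the log2 scale (limma adjusted p = 0.437 and 0.584).

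The F-BAR and N-BAR relatives, most of which bend membranes inward, had medians near 0 but single genes from -0.63 to 0.40 on the log2 scale. Of 22 F-BAR genes, 5 were above and 17 below 0, with a median of -0.05, and of 13 N-BAR and related genes, 6 were above and 7 below, with a median of -0.03. Arhgap29, an F-BAR protein that inactivates small GTPases, had 890 to 1177 normalized counts in the controls and 1294 to 1782 in sgCcnd1 without overlap (log2 fold change 0.40, limma adjusted p = 0.270). Arhgap45, a minor histocompatibility antigen of blood cells, was at -0.36 and Trip10, a Cdc42 effector, at 0.22 (limma adjusted p = 0.334 and 0.455). Sh3glb1, Arfip2 and Arfip1 stood between 0.12 and 0.16 on the log2 scale.

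Of 9 genes of the insulin receptor and its substrates, 4 were above and 5 below 0, with a median of -0.01. Insr stood at 0.14 (standard error 0.11). Irs1, the docking protein best known downstream of it, was at 684 ± 205 normalized counts in the controls and 515 ± 63.5 in sgCcnd1 (log2 fold change -0.37, limma adjusted p = 0.426). Control library A was at 981 and the other controls at 525 to 653, and without A the log2 fold change was -0.19. Gab1 stood at 0.22 and Grb10 at 0.24 on the log2 scale (limma adjusted p = 0.486 and 0.650).

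**Figure D4:**
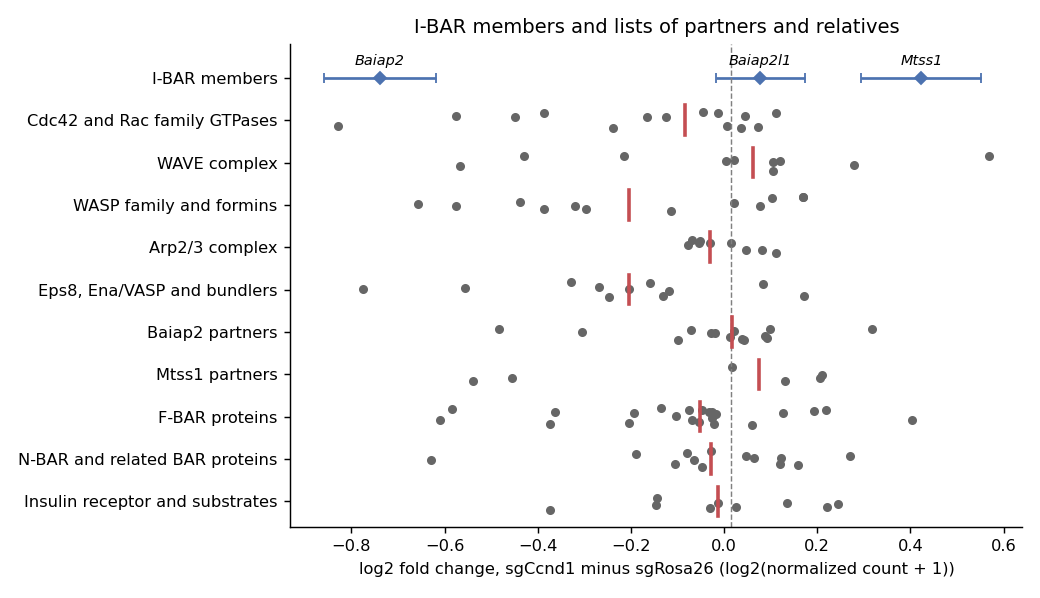
Log2 fold change, sgCcnd1 minus sgRosa26 (horizontal axis), of the 3 measured members (diamonds with 1 standard error) and of each tested gene in 10 lists (grey points, rows). Red bars are list medians and the dashed line is the median of all genes tested, 0.01. List medians lie between -0.20 and 0.07, Baiap2 at -0.74 and Mtss1 at 0.42.

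Markers of other liver cells differed in value between the groups in part, and their part in the values of the members and of the partner genes was not tested. The summed level of 7 cholangiocyte markers was 1368 to 2287 normalized counts in the controls and 1074 to 1481 in sgCcnd1. For 7 T and NK cell markers the sum was 63.9 to 181 and 32.0 to 130. The overlap in this sum rests on library E, at 130, since F to I had 32.0 to 55.8. The 4 T and NK cell markers that were tested were all below 0, with a median log2 fold change of -1.24. The sum of 6 B and plasma cell markers was 228 to 451 and 171 to 412, and that of 7 stellate cell markers was 3647 to 5988 and 3271 to 4928. The sums overlapped between groups for these 4 lists, as they did for 7 endothelial markers (1913 to 2943 and 2160 to 3081), 7 Kupffer cell markers (2320 to 3144 and 2148 to 2810) and 3 mesothelial markers (2568 to 4448 and 2745 to 3595). The mesothelial sum is nearly all Krt8, which hepatocytes express too, at 3231 ± 780.4 and 3089 ± 363 normalized counts. The other mesothelial markers were Msln, at 21.6 ± 21.8 and 12.4 ± 8.32, and Upk3b, at 42.6 ± 27.5 and 19.2 ± 11.6 normalized counts, with overlap in each, and the median log2 fold change of the list was -0.78 with 3 of 3 below 0. In all 8 marker lists 0 listed genes were at 0 in every library, and 0 of the marker genes tested passed in limma.

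Genes whose values followed Baiap2 were sought among the 10350 genes that averaged 50 normalized counts or more, by Pearson's r of log2 values over the 9 libraries, as a description. The most alike were Aida (r = 0.96, Spearman's coefficient = 0.92), Leng8 (0.94 and 0.93), Stat5a (0.92 and 0.90), Gimap3 (0.92 and 0.93) and Arhgap10 (0.92 and 0.85). The libraries share their group in this measure, and 4 of these 5 genes did not overlap between groups, all lower in sgCcnd1. Aida had 198 to 206 normalized counts in the controls and 170 to 200 in sgCcnd1, so it followed the order of the libraries over a much smaller range than Baiap2 did.

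With each group's mean removed, which takes out the difference between groups, Aida was again the most alike (r of deviations = 0.96 over the 9 libraries). Zfp292 (0.94), Malt1 (0.94), Itga4 (0.93) and Kank1 (0.93) came next. Kank1, a cortical actin regulator, is also on the list of Baiap2 partners. Its normalized counts were 816 in F and 840 in H, the lowest of the sgCcnd1 group, and 1188 in G, the highest, which is the order of Baiap2 at those libraries, while its log2 fold change between groups was 0.01. Like Baiap2, these 5 genes were highest in G and lowest in F or H within sgCcnd1, which the choice of the genes by their likeness fixes in large part.

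**Figure D5:**
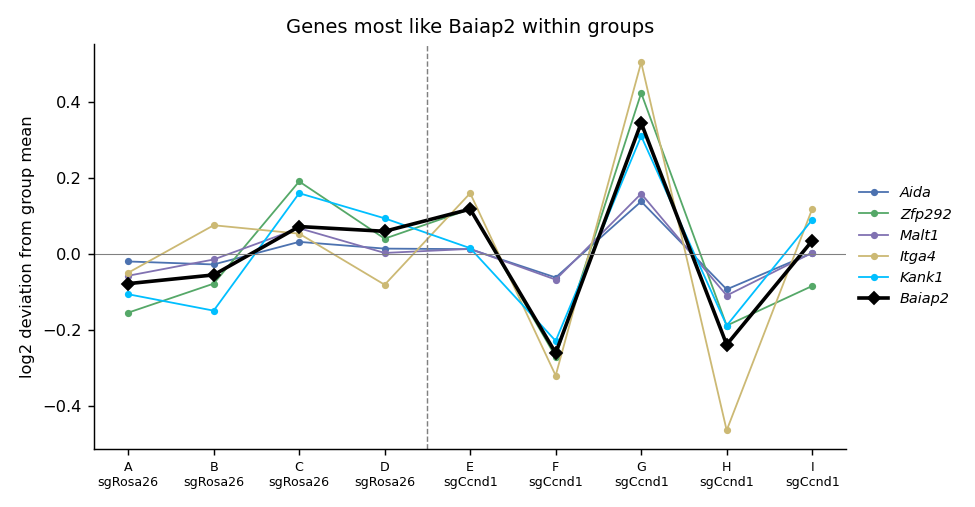
Deviation of log2(normalized count + 1) from the mean of the group (vertical axis) in each library (horizontal axis) for Baiap2 (black diamonds) and the 5 genes with the highest r of deviations. The dashed line separates controls from sgCcnd1. All 6 genes are highest in G and lowest in F or H within sgCcnd1, and their amplitudes differ, with Aida and Malt1 the flattest.

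The same measure was applied to the other measured members. For Baiap2l1 the most alike gene was Fam20a, with r of deviations of 0.98, at 650 to 861 normalized counts in the controls and 713.7 to 838 in sgCcnd1. For Mtss1 it was Prkdc, with r of deviations of 0.97, at 91.2 to 116 and 114 to 126 normalized counts. Within the family the deviations of Baiap2 had an r of 0.47 with those of Baiap2l1 and of -0.06 with those of Mtss1, and of -0.43 with those of Mtss2. The deviations of Baiap2l1 and Mtss1 had an r of 0.44.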

How the data were processed

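Poly(A) RNA-seq of 9 liver libraries was analysed, 4 sgRosa26 and 5 sgCcnd1. Per the submitters' processing notes the tools were Trim Galore 0.6.7, HISAT2 2.2.1, featureCounts 2.0.3 and DESeq2 (wrapper version 2.11.40.8), with the build mm10 (GRCm38). The annotation and use of strand are not given in the sources used here. The deposited signal of each library is gene reads divided by 1 size factor: 100% of values were whole multiples of the value of 1 read (tolerance 0.01 read), which returned the reads, 10840595 to 20176201 per library. Precision from reads covers counting error only. Chi-square per degree of freedom between libraries of a group was 13.1 to 42.4, so each was kept as a sample.

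The test was limma 3.58.1 (R 4.3.3; lmFit, eBayes with trend, two-sided) on log2(normalized count + 1) for 12993 genes (mean 10 or more), with Benjamini-Hochberg adjustment over them and a threshold of 0.05. Alternatives were edgeR 4.0.16 and DESeq2 1.42.0 on the reads, other pseudocounts, filters and scalings, and each library left out. All procedures were tested on simulated counts. The members and lists were chosen with earlier results of these data known. Text names the members, the targeted loci, up to 3 genes per list with the smallest p and a mean of at least 50, and the 5 genes most like Baiap2 by each measure. Other genes named (Alb, Ttr, Ddx3y, Krt8, Msln, Upk3b, Cdc42, Rac1, Wasf2, Wasl, Diaph1, Enah, Adgrb1, Insr, Daam1, Pstpip1, Fam20a, Prkdc) were added for their role or after their values were seen. Transcript lengths came from GENCODE M21. Promoters from RefSeq matched 3 of 5 I-BAR genes, Baiap2, Baiap2l1 and Mtss2. Replicates are mice per the labels' titles. Figures used matplotlib 3.10.9.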

Additional observations from a re-analysis of the deposited data

Results flagged for a closer look

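Single libraries were compared with the rest of their group for 130 groups of values, and 8 stood far from the others, where chance gives about 6.5. 0 of the 8 concern a level or ratio of Baiap2, Baiap2l1, Mtss1 or Mtss2. Within sgCcnd1, library H had a normalized count of 2.00 for Ddx3y (948 to 1154 elsewhere in the group) and of 1782 for Arhgap29 (1294 to 1380 elsewhere). In sgCcnd1 library E, Fmnl1 was at 64.0 normalized counts against 42.6 to 48.3, and the T and NK cell markers summed to 130 against 32.0 to 55.8. In sgCcnd1 library I, Sh3glb1 was at 847 normalized counts against 749 to 771 and Gab1 at 346 against 255 to 267. In the controls, Arhgap29 was at 890 normalized counts in library B against 1128 to 1177, and library A had 12.2 M reads against 16.2 to 16.6 M.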

How the results depend on the processing

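The count models without library H and the length of all exons were chosen after seeing the data. No paired analysis was possible because column names lack replicate numbers. In the titles such numbers count mice within each group and state no pairing between groups, so no paired design is known. Over 20 alternatives the log2 fold change of Baiap2 stayed between -0.83 and -0.67, that of Baiap2l1 between 0.02 and 0.15 and that of Mtss1 between 0.28 and 0.51, each moving by less than 1 SD between libraries. Leaving out 1 library at a time gave -0.83 (without G) to -0.67 (without F) for Baiap2, 0.02 to 0.15 for Baiap2l1, and 0.28 (without B) to 0.51 (without C) for Mtss1. Without H the values were -0.68 for Baiap2, 0.10 for Baiap2l1 and 0.41 for Mtss1. In limma 1 gene was lower in sgCcnd1. This became 2 after quantile normalization, 70 under DESeq2 and 25 under DESeq2 when H was left out, 0 under edgeR when H was left out, and 0 to 2 in limma with a library left out. It was 2 without E or G and 0 without B, D, F, H or I. In limma 0 genes were higher, also with any library left out, against 34 under DESeq2 and 16 under DESeq2 when H was left out. DESeq2 left 254 adjusted p-values undefined with all libraries and 2270 without H, so its counts rest on different numbers of genes. At an unadjusted p under 0.05 limma gave 746 genes lower and 678 higher. The cause of the gap between the models was not tested. In the 10 lists, 0 genes were called lower and 0 higher under each of these alternatives, DESeq2 included, and the median over the genes of these lists that each alternative tested was between -0.06 and -0.02. Log2 fold changes of the named list genes kept their sign wherever they were tested, and those past 0.20 in size that moved by over 1.5 times with a library left out were Irs1 (-0.19 without A), Wipf1 (-0.36 without H), Eps8l2 (-0.18 without C and -0.16 without F), Prkaa2 (0.19 without B), Gab1 (0.14 without I) and Grb10 (0.13 without C and 0.15 without H). Medians kept their sign in 14 of 20 alternatives for the Baiap2 partners, 15 for the insulin receptor list, 18 for the Mtss1 partners and 19 for the Arp2/3 complex. The median of the WASP family and formins turned to 0.05 with a minimum mean of 100 normalized counts, where fewer genes enter it. The 5 genes most like Baiap2 were the same with a pseudocount of 10, by values and by deviations. With the length of all exons, Mtss1 in the controls came to 219 and Baiap2 to 171 normalized counts per kb, and the Mtss1 share to 35.8%.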
